A study of Mus musculus with 8 samples.

Results

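Prostate tumours of untreated TRAMP mice were set against non-tumour prostates of wild-type mice, both at 30 weeks of age, and the change was read over every gene measured. The 4 samples, 2 in each group, are those that the labels give as untreated TRAMP and as wild type, out of 8 in the series. All mice were C57Bl/6. In TRAMP mice the probasin promoter drives the T antigens of the SV40 virus in prostate epithelium, so the oncogene is on in that cell type, and the other cells of a tumour sample carry the transgene without that drive. The other samples, tumours at 24 weeks from TRAMP mice given cromolyn since 8 weeks of age (n = 3) and from TRAMP mice with the KitW-sh genotype (n = 1), are in no comparison here: the former served in the estimate of spread, and the single KitW-sh array, which has no replicate, added nothing to it. All 8 arrays also entered the normalization, the choice of 1 probe per gene and the background filter. RNA of each sample was measured on 1 expression beadchip array, which reports the brightness of a probe per transcript. Nothing in the labels says that samples of a group were separate animals, so the p-values below speak only for the scatter among these arrays, part or all of which may be technical, and the number of arrays limits the precision.

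T antigen binds the retinoblastoma proteins and p53. Retinoblastoma proteins hold back the E2F transcription factors, whose targets copy DNA, and the DREAM complex, which contains relatives of the retinoblastoma protein, holds back genes of mitosis. The mouse prostate consists of several lobes of secretory luminal epithelium over basal cells, in a stroma of smooth muscle, nerve and vessels, and it lies beside the seminal vesicles, the urethra with its striated muscle, and fat. Marker genes of prostate luminal epithelium were tested for 7 of 9 list members. Each of the 7 was above background on at least 1 array of each group, Hoxb13 on only 1 of the 2 in each. Their summed deposited intensity was 164848 and 154154 in the wild-type samples and 157992 and 114771 in the tumours.

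Levels are given below as log2 intensity after normalization, for replicate 1 and then replicate 2 of a group. Differences are TRAMP minus wild type on the log2 scale ± SE. The SE comes from the gene's spread within the groups that hold more than 1 array, which limma draws toward the spread typical over all genes. A gene was called at a limma adjusted p under 0.05 over all genes. Of 13010 genes tested, 486 were higher in the tumours (3.74%) and 377 lower (2.90%), together 6.63%. The median difference over all genes was -0.01. The levels of the groups did not overlap in any of the 863 called genes, but neither did they in 61.1% of all genes. A change of at least 2-fold was seen in 416 of the higher and 346 of the lower genes, of at least 4-fold in 148 and 137, and of at least 8-fold in 28 and 56. Falls thus outnumbered rises among the largest changes. No wild-type array was above background for 48 of the higher genes, and no tumour array for 110 of the lower genes. Across genes, which are not independent replicates, levels correlated at 0.967 between the wild-type arrays, 0.984 between the tumour arrays and 0.922 to 0.934 between the groups. With each of the 8 arrays left out in turn, 174 of the 863 calls held every time (105 higher and 69 lower). Such calls are named below as held.

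**Figure D1:**
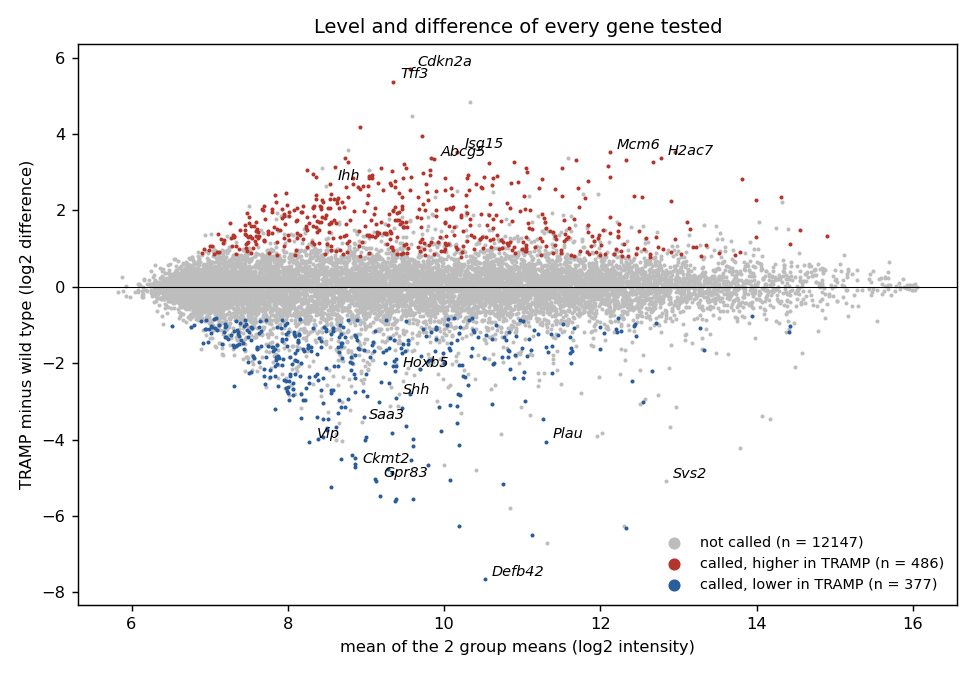
Each point is a gene, with the mean of the 2 group means (log2 intensity) on the x axis and TRAMP minus wild type (log2 difference) on the y axis. Called genes are coloured, 486 higher and 377 lower, and the falls reach further from 0 than the rises. Svs2 and Saa3 lie far below 0 without a call, since the arrays of a group were far apart there.

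Genes that prepare and fire origins of replication rose together in the tumours. Of 24 listed genes of origin licensing and the MCM helicase, 20 were tested and 13 rose, with none lower, against 3.74% of all genes, and the median difference was 2.02. Mcm2 to Mcm7 encode the hexamer that unwinds DNA, and the genes of all 6 subunits rose. Mcm6 was at 10.35 and 10.35 in wild type and 13.86 and 13.91 in the tumours, an 11.5-fold rise (3.53 ± 0.23, adjusted p = 0.00104). Mcm5 was at 9.84 and 10.22 against 13.34 and 13.34 (3.31 ± 0.25, adjusted p = 0.00131). The loading factors Cdt1 and Cdc6 rose by 3.24 ± 0.23 and 2.64 ± 0.18. In each of these genes both tumours lay above both wild-type prostates. Calls held for 11 of the 13. The exceptions were Orc6, which lost its call without any of the 4 compared arrays in turn (adjusted p up to 0.114), and Cdc7, which lost it without either tumour (adjusted p up to 0.114).

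The promoters of these genes were searched for E2F words, since E2F factors bind sites of the form TTTCCCGC, TTTCGCGC, TTTGCCGC or TTTGGCGC. Promoters were taken from 250 bases before to 50 bases after the gene start from RefSeq on GRCm38.p6, read on both strands, with 1 promoter per gene. A word was present in 8 of 17 licensing and MCM genes with a promoter (47.1%), in 48 of 366 called higher genes (13.1%), in 2 of 267 called lower genes (0.749%), and in 2.32% of all 27025 promoters. Of the 13010 genes tested 9589 had a promoter, and 3.66% of these held a word. It was present in 3 of 20 replication fork genes, 5 of 25 kinetochore genes and 3 of 13 mitotic kinases and phosphatases (23.1%). The promoters of Mcm6 (chr1:128359656-128359955, minus strand) and Mcm5 (chr8:75109259-75109558, plus strand) are shown because the 2 genes lead their list and because words of both strands overlap there. Capitals mark E2F words, on the printed strand or as the reverse complement.
Mcm6: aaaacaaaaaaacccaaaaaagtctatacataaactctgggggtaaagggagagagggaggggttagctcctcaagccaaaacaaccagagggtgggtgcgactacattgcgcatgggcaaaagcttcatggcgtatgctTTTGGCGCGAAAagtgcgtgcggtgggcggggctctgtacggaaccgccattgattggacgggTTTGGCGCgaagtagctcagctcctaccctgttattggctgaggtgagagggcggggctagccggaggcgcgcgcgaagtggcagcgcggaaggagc
Mcm5: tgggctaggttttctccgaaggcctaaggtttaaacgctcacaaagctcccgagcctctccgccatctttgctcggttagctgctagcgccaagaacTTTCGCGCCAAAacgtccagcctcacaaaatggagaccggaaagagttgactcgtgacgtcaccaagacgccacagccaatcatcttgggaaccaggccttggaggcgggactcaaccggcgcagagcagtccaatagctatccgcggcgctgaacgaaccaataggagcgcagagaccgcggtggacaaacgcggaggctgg
A word in such a window is a description of its letters and not evidence of binding.

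At the fork itself 20 of 24 genes tested (of 28 listed) rose and none fell, with a median difference of 1.69. They cover polymerases (Pold1, 2.05 ± 0.19, and Pole, 2.06 ± 0.20), the ligase of Okazaki fragments (Lig1, 2.72 ± 0.23), the checkpoint mediator Claspin (Clspn, 7.80 and 8.28 against 10.95 and 10.85) and both large subunits of the chromatin assembly factor that loads histones behind the fork (Chaf1a, 2.28 ± 0.19, and Chaf1b, 2.84 ± 0.22). These 6 calls held, and 9 of the 20 did in all. Enzymes of DNA precursors were mixed. Of 20 nucleotide synthesis genes tested, 7 rose and 1 fell, with thymidylate synthase Tyms (2.18 ± 0.19), ribonucleotide reductase Rrm1 (1.90 ± 0.18) and thymidine kinase Tk1 (2.12 ± 0.21) higher and held. The pyrimidine synthesis gene Cad fell, from 10.79 and 10.95 to 9.43 and 9.49 (-1.41 ± 0.23, adjusted p = 0.0162), and lost its call without any of the 4 compared arrays (up to 0.123).

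Of 49 histone genes tested, 9 rose (18.4% against 3.74% of all genes) and 1 fell (2.04% against 2.90%), with a median of 0.01. Of the 9 that rose, 8 encode histone H2A: H2ac7 went from 10.74 and 11.44 to 14.25 and 14.66 (3.37 ± 0.31), and H2ac11, H2ac12, H2ac15 and H2ac24 rose by 2.35 to 3.31 and held. The H2A gene H2ac18 went the other way (11.51 and 10.97 against 9.31 and 9.57), a call lost without either tumour (up to 0.0996). H2A genes are near-identical copies, so a probe may read several of them, and the single members are uncertain. No H3 or H4 gene was called.

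Among the regulators of this programme, 6 of 16 genes of the E2F, RB and DREAM list rose and none fell. E2f1 went from 9.22 and 8.90 to 11.75 and 11.75 (2.69 ± 0.19, adjusted p = 0.00106). The mitotic gene activator Foxm1 rose by 1.99 ± 0.20, and both calls held. Mybl2 (1.70 ± 0.19), the E2F partner Tfdp1 (1.53 ± 0.17), Lin54 (1.53 ± 0.21) and the retinoblastoma relative Rbl1 (1.57 ± 0.23) rose too, but each lost its call without TRAMP replicate 2 (adjusted p up to 0.0984), Tfdp1, Lin54 and Rbl1 also without TRAMP replicate 1, and Lin54 and Rbl1 also without wild-type replicate 2. Rb1 itself differed by 0.07 ± 0.23 (adjusted p = 0.916). All 7 inhibitors of cyclin-dependent kinases tested had positive differences and 2 were called. Cdkn2a, which encodes p16Ink4a and p19Arf, was not above background in wild type and at 12.21 and 12.63 in the tumours, at least 42.2-fold higher. Cdkn2c rose by 1.70 ± 0.23, a call lost without either tumour or wild-type replicate 2 (up to 0.0952). On the 4 compared arrays alone 5 of the 7 were called. Chromatin genes that keep marks through replication rose with these. Uhrf1, Ezh2, Dnmt1 and Rbbp7 were 4 of 17 DNA methylation and Polycomb genes tested, with none lower. Ezh2, the methyltransferase of Polycomb repressive complexes, went from 9.86 and 9.76 to 11.79 and 11.96 (2.07 ± 0.17) and held. Dnmt1 (1.73 ± 0.20) lost its call without TRAMP replicate 2 (0.0512), and Rbbp7 without any of the 4 compared arrays or TRAMP cromolyn replicate 3 (up to 0.183).

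Mitotic genes rose in several parts of the machinery. The share was 10 of 17 for mitotic kinases and phosphatases (median 1.85), 22 of 30 for kinetochore and centromere genes (median 1.63), 9 of 13 for spindle and cytokinesis genes (median 1.53) and 8 of 18 for cohesin and condensin genes (median 0.70), with none lower in these 4 lists. It was 3 of 19 for mitotic ubiquitin ligases (median 0.29), and of 18 cyclins 2 rose and 1 fell (median 0.03). With each array left out in turn, calls held for 5 of the 10 kinases and phosphatases, 6 of the 22 kinetochore genes, 4 of the 9 spindle genes, 2 of the 8 cohesin and condensin genes and 2 of the 3 ubiquitin ligases, but for no cyclin. Plk1, the polo-like kinase, was at 8.29 and 8.20 in wild type and at 11.01 and 11.45 in the tumours (2.99 ± 0.21). The spindle checkpoint kinase Bub1b rose by 2.27 ± 0.16, the microtubule bundler Prc1 by 3.17 ± 0.19, the centromere protector Sgo1 by 2.72 ± 0.22 and the condensin subunit Ncapd2 by 2.53 ± 0.18, and all 5 calls held. Pbk, a mitotic kinase gene, rose by 3.26 ± 0.37 but lost its call without TRAMP replicate 2 (adjusted p = 0.0512). Kinesins went both ways. Of 24 tested, 7 rose, all of them motors of mitosis such as Kif4 (2.85 ± 0.16) and Kif18b (3.04 ± 0.24), both held. The 2 that fell were Kif5c (-2.28 ± 0.38) and Kif5a (-1.49 ± 0.31), motors of axonal transport, and their calls were lost without either tumour or wild-type replicate 1 (up to 0.13 and 0.231), that of Kif5a also without wild-type replicate 2 or TRAMP cromolyn replicate 3.

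The letters TTTGAA form the core of the cell cycle homology region, the element that DREAM reads in promoters of mitotic genes. They were present in 6 of 13 promoters of mitotic kinases and phosphatases (46.2%), in 20.8% of the called higher genes, 13.1% of the called lower genes, 12.3% of the genes tested and 18.1% of all promoters. The share was 28.0% for kinetochore genes (7 of 25) and 29.4% for licensing and MCM genes (5 of 17), and the letters were in 2 of 20 replication fork genes. The CCAAT box, bound by NF-Y, was present in 48.4% of the called higher genes, 36.0% of the called lower genes, 38.6% of the genes tested and 37.9% of all promoters. The Plk1 promoter (chr7:122159185-122159484, plus strand) is shown with these letters in capitals.
Plk1: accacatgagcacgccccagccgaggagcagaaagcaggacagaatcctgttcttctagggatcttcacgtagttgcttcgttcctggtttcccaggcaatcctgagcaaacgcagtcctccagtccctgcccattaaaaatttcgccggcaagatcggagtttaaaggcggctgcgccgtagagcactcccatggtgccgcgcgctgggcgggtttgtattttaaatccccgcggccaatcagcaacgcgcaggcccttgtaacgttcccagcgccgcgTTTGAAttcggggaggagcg

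DNA repair genes were in part higher. Of 16 homologous recombination genes tested (26 listed), 7 rose and none fell. Rad54b, a DNA translocase of recombination, went from 8.16 and 8.10 to 11.47 and 11.57 (3.39 ± 0.19), and its relative Rad54l from 8.04 and 7.94 to 10.68 and 10.62 (2.66 ± 0.17). These are 2 of the 3 calls that held among the 7. Brca1 was not above background on any of the 4 arrays. Of 5 Fanconi anaemia genes tested 4 rose, with Fanci not above background in wild type and at least 2.66-fold higher in the tumours. Only Fanci held: Fancd2, Fancg and Fancl lost their calls without either tumour or wild-type replicate 1 (up to 0.149, 0.269 and 0.237), Fancg and Fancl also without wild-type replicate 2 or TRAMP cromolyn replicate 3, and Fancl without TRAMP cromolyn replicate 1. In mismatch and base excision repair 3 of 15 rose, led by the uracil glycosylase gene Ung (1.78 ± 0.24, adjusted p up to 0.0885 without a tumour). Nuclear envelope genes were higher in 8 of 20 cases. The lamin gene Lmnb1 rose by 2.08 ± 0.28 and Tmpo by 2.34 ± 0.27, but no call of this list held with every array left out (up to 0.0906 and 0.0552).

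**Figure D2:**
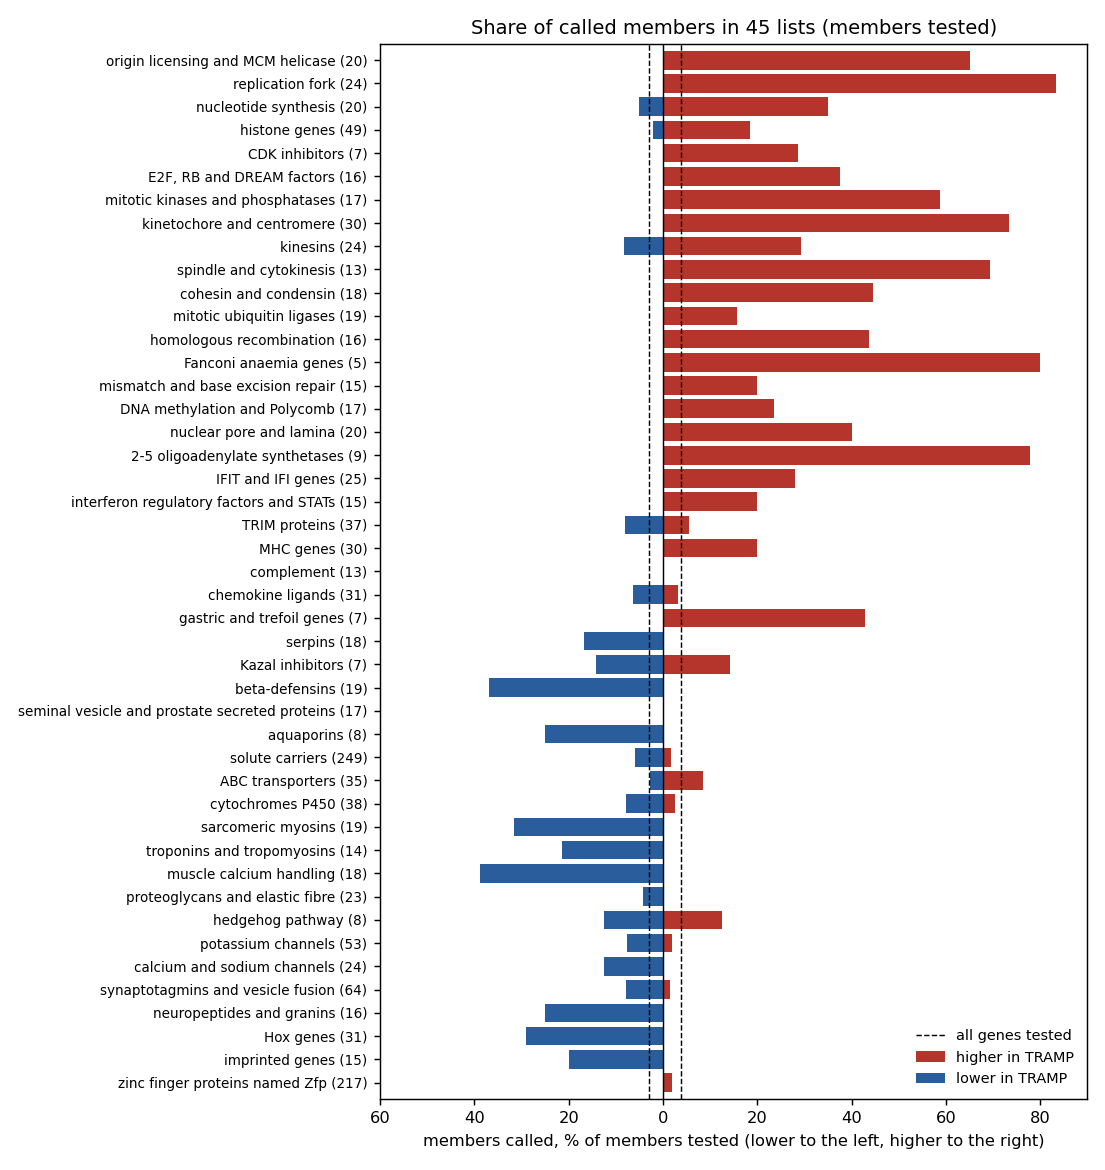
Bars show the share of tested members called higher (to the right, red) and lower (to the left, blue) in each of 45 lists, in percent, with the number tested in brackets and dashed lines at 3.74% and 2.90%, the shares over all genes. Lists of replication, mitosis and interferon response extend to the right, and lists of muscle, neuropeptides, Hox genes and beta-defensins to the left.

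Outside any list, 450 named genes were called, and the first 8 given here were picked after their values were seen. Further genes of replication rose, among them Fignl1 (7.75 and 8.16 against 11.02 and 11.10), the helicase Pif1 (2.88 ± 0.29), Donson (2.31 ± 0.23), Tonsl (2.08 ± 0.22) and the clamp loader gene Chtf18 (2.19 ± 0.17), all held. Epithelial genes that rose were Scnn1a, a subunit of the epithelial sodium channel, from 9.71 and 9.40 to 12.57 and 12.57 (3.02 ± 0.27), the anoctamin Ano9 (3.22 ± 0.19) and the gluconeogenic enzyme gene Fbp1 (9.04 and 9.12 against 11.98 and 11.92), all held. Within the lists, glucuronosyltransferases and sulfotransferases had 1 member higher and 1 lower of 11 tested: Sult1c2 rose by 2.88 ± 0.21, and Sult4a1 fell from 10.72 and 11.25 to 7.08 and 6.88, both held. Klk1b11 was the 1 called gene of 15 kallikreins tested. It was not above background in wild type and at least 6.75-fold higher in the tumours.

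Genes known from the gut were among the rises. Tff3, the trefoil peptide of goblet cells, was not above background in wild type and at 11.60 and 12.47 in the tumours, and Atp4a, the catalytic subunit of the gastric proton pump, went from 7.35 and 8.12 to 11.72 and 11.67 (3.96 ± 0.29). They were 2 of 3 called members among 7 gastric and trefoil genes tested, and the other, Ctse, lost its call without either tumour or TRAMP cromolyn replicate 1 or 3 (up to 0.176). Tff1 and Tff2 were not called. Abcg5 and Abcg8, which together form the sterol exporter of liver and gut, rose together: Abcg5 from 8.39 and 8.01 to 11.67 and 11.40 (3.34 ± 0.39), and Abcg8, above background on 1 of the wild-type arrays, to 10.43 and 9.94 (3.15 ± 0.21). With Abcc12, not above background in wild type and at least 4.07-fold higher, they were the 3 of 35 ABC transporter genes that rose, and all 3 calls held. The hedgehog ligands went opposite ways. Ihh, the ligand known from gut epithelium and growth plates, rose from 7.45 and 6.95 to 9.99 and 9.80 (2.69 ± 0.22, adjusted p = 0.00144). Shh, the ligand of the developing prostate, fell from 10.55 and 11.13 to 7.99 and 7.86 (-2.91 ± 0.24, adjusted p = 0.00168). Both calls held, and the receptor and target Ptch1 was not above background on any of the 4 arrays.

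**Figure D3:**
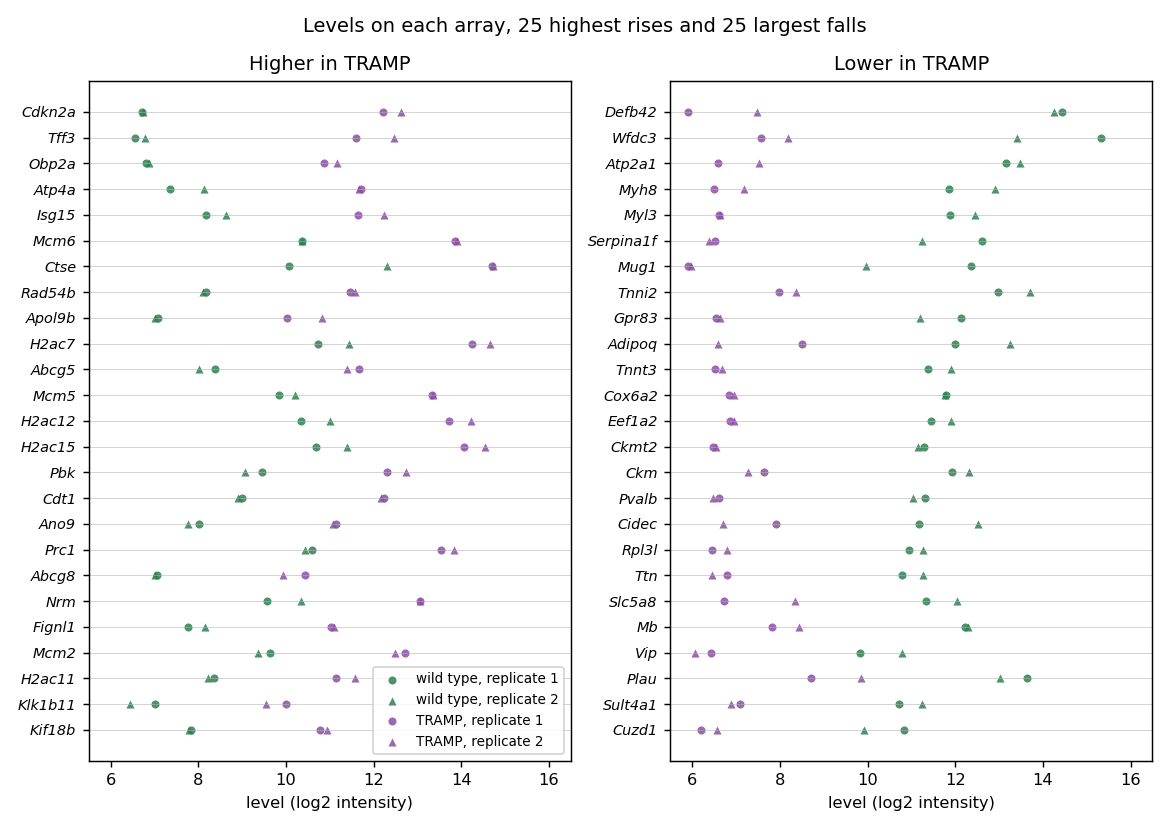
Levels (log2 intensity, x axis) on each of the 4 arrays for the 25 named genes with the highest rise and the 25 with the largest fall among called genes, with wild type in green, TRAMP in purple, circles for replicate 1 and triangles for replicate 2. In every row the groups stand apart, and the spread within a group is wide for some genes, such as Ctse and Mug1 in wild type.

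Interferon-induced genes were called higher in some families and rarely or not at all in others, and whether the families differ was not tested. Of 9 tested genes of the 2-5 oligoadenylate synthetases, which sense viral RNA, 7 rose and none fell (median 1.44). Oasl2 went from 10.32 and 11.06 to 13.57 and 13.55 (2.87 ± 0.31) and held. The other 6 lost their calls without TRAMP replicate 2 and, except for Oasl1 and Oas3, also without TRAMP replicate 1, with an adjusted p up to 0.219. Of 25 IFIT and IFI genes tested 7 rose, with Isg15, a ubiquitin-like modifier, at 8.18 and 8.62 against 11.63 and 12.23 (3.53 ± 0.35), and Rsad2 (2.75 ± 0.25) and its neighbour Cmpk2 (2.51 ± 0.24) held beside it. With only the 4 compared arrays the count was 12 of 25. Of 11 guanylate binding proteins and immunity-related GTPases, also induced by interferon, none was called, although 10 had positive differences (median 0.42). In that list the median gap between the wild-type arrays was 0.95. None of 5 schlafens was called (4 positive, median 0.37), and of 13 nucleic acid sensors 1 was called higher (12 positive, median 0.45). The regulators Irf7, Irf9 and Stat2 rose in a list of 15, from 7.64 and 8.33 to 10.76 and 10.74 for Irf7, but lost their calls without either tumour (adjusted p up to 0.125), Irf9 and Stat2 also without wild-type replicate 2 and Irf9 without wild-type replicate 1. The chemokine Cxcl10, induced by interferon, rose by 1.68 ± 0.26 (adjusted p up to 0.131 with 1 of the 4 arrays left out). In wild type, replicate 2 was above replicate 1 for 7 of the 9 synthetase genes, but the median gap was only 0.05. It was wider for Oas1g (8.72 and 9.67), Oas2 (6.92 and 8.27) and Oasl2. Marker levels of immune cells stood apart between the same 2 arrays: the summed intensity of 5 tested macrophage markers was 4338 and 16668 in wild type and 9821 and 9146 in the tumours, and that of 5 T and NK cell markers 1127 and 1799 against 1508 and 1740. Their part in the interferon genes was not tested.

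The interferon-stimulated response element was searched on both strands as GAAA, any 2 bases, and GAAA again. It was present in 4 of 6 promoters of the synthetases (66.7%), 8 of 19 of the IFIT and IFI genes (42.1%), 6.28% of the called higher genes, 0.375% of the called lower genes (1 of 267), 3.13% of the genes tested and 3.49% of all promoters. Isg15 (chr4:156200769-156201068, minus strand), the largest rise of its list, is shown with its overlapping matches in capitals.
Isg15: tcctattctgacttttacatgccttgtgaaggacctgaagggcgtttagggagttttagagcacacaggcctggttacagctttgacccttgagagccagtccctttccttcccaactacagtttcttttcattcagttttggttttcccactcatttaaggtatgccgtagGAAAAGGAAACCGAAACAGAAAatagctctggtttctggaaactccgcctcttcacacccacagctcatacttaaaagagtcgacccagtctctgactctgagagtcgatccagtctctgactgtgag

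Genes of striated muscle were among the largest falls. Of 9 skeletal muscle markers tested 7 fell (median -4.63). Genes of muscle calcium handling fell: 7 of 18 tested were lower and none higher (median -0.78), with Pvalb counted here and among the markers. Ryr1, the release channel, was at 9.13 and 9.51 in wild type and not above background in the tumours, at least 4.94-fold lower, and its luminal partner Hrc fell by 2.33 ± 0.20, both held. Sarcomeric myosins fell in 6 of 19 cases and troponins and tropomyosins in 3 of 14, with none higher. Calls held for 2 of the 7, 5 of the 6 and 1 of the 3. The energy genes of the fibre were lower as well: Ckm, the cytosolic creatine kinase, went from 11.93 and 12.32 to 7.64 and 7.26 (-4.68 ± 0.34), myoglobin (Mb) from 12.21 and 12.29 to 7.81 and 8.43 (-4.13 ± 0.37), and Cox6a2, the muscle form of a cytochrome oxidase subunit, was at least 27.1-fold lower. The call of Cox6a2 was lost without any of the 4 compared arrays (up to 0.154), and those of Ckm and Mb held. Translation genes of muscle, Eef1a2 and Rpl3l, were at least 25.2-fold and 16.9-fold lower, and titin (Ttn) at least 16.1-fold, all held. The membrane repair gene Trim72 was at least 9.7-fold lower and held. Skeletal muscle markers summed to 69783 and 101437 in wild type and 20033 and 14453 in the tumours, with Myh1, Myh4, Pvalb and Tnnt3 of 9 tested below background in both tumours. The E-box letters CAGCTG, of the kind that myogenic factors bind, were present in 22.5% of called lower, 13.9% of called higher, 15.6% of tested and 16.1% of all promoters, and in 5 of 7 promoters of the skeletal muscle markers (71.4%). In such bulk samples fewer muscle fibres and less RNA per fibre cannot be told apart.

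Genes of nerve were lower too. Of 16 neuropeptide and granin genes tested 4 fell (25% against 2.90% of all genes) and none rose (median -0.88). Vip, the vasoactive intestinal peptide of autonomic nerves, was at 9.83 and 10.79 in wild type and not above background in the tumours, at least 9.8-fold lower, and held. Scg5, Pcsk1n and Cartpt fell too, at least 3.02-fold, 2.22-fold and 3.82-fold, but lost their calls without either tumour or wild-type replicate 2 (up to 0.204), Scg5 and Pcsk1n also without wild-type replicate 1 and Cartpt without TRAMP cromolyn replicate 3. With only the 4 compared arrays 8 of the 16 were lower. Of 64 genes of vesicle fusion 5 fell and 1 rose, and with only the 4 compared arrays 9 fell and 2 rose. The synaptic vesicle genes Syp (10.41 and 10.46 against 7.66 and 7.51), Syn1 (at least 5.23-fold lower) and Cplx1 (at least 8.35-fold lower) held. Slc6a2, which takes noradrenaline back into sympathetic endings, fell from 11.91 and 11.53 to 9.19 and 8.03 (-3.11 ± 0.39). It was the 1 call that held among 15 lower and 4 higher of 249 solute carriers tested (median -0.14), where the 4 compared arrays alone gave 24 and 9. The channels Kcna2 (at least 3.88-fold lower) and Cacng5 (at least 3.05-fold lower) held, in lists with 4 of 53 and 3 of 24 members lower. Of the latter, Cacng1 is also counted above under muscle calcium handling. The lower share was 7.81% for vesicle fusion, 6.02% for solute carriers and 7.55% and 12.5% for these channels, against 2.90% of all genes. Outside the lists, further neuronal genes, picked after their values were seen, fell and held. These were Rtn1 (10.91 and 11.19 against 8.05 and 7.70), Mapt (-2.44 ± 0.21), which encodes tau, and Syngr3 (-2.71 ± 0.25). Of neuroendocrine markers, 6 of 7 tested were not above background in either tumour, 2 of them in neither wild-type array as well, and the 7 summed to 3835 and 3550 in wild type and 1400 and 1394 in the tumours. Of 7 listed Schwann cell markers 3 were tested, summing to 5412 and 6191 against 5312 and 4747.

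Hox genes give a cell its place along the body axis, and several keep their expression in the adult prostate. Of 31 tested (38 listed) 9 fell and none rose (29.0% against 2.90% of all genes), with a median of -0.55. Hoxb5 was at 10.53 and 10.42 in wild type and 8.15 and 8.39 in the tumours (-2.20 ± 0.19, adjusted p = 0.00169), and Hoxb4 at 10.06 and 10.21 against 7.64 and 8.08 (-2.27 ± 0.23, adjusted p = 0.00305). These 2 calls held. Hoxc10, Hoxd4, Hoxd8 and Hoxb9 differed by -1.15 to -2.50. Hoxc6, Hoxc9 and Hoxb3 were not above background in either tumour and were at least 2.8-fold, 2.14-fold and 1.92-fold lower. Each of these 7 lost its call with at least 1 of the compared arrays left out (up to 0.245). With only the 4 compared arrays 10 were lower and 3 higher. The falls lay in 3 of the 4 clusters. In the B cluster 4 of 8 tested fell, in C 3 of 6 and in D 2 of 8, and in the A cluster 0 of 9, where the median was 0.14. Whether the clusters differ was not tested. The genes that fell carried paralogue numbers 3 to 10. Of 8 tested with numbers 11 to 13, the end of the cluster used most in the prostate, none was called. Among these, Hoxa11, Hoxb13, Hoxc12, Hoxc13 and Hoxd11 had wild-type means of 6.87 to 7.09. Background lies at about 7.02, so a fall could hardly have been seen in them. Hoxd13 differed by 0.84 ± 0.20 (adjusted p = 0.0595), and Hoxa10 by 1.44 ± 0.98 (adjusted p = 0.467).

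**Figure D4:**
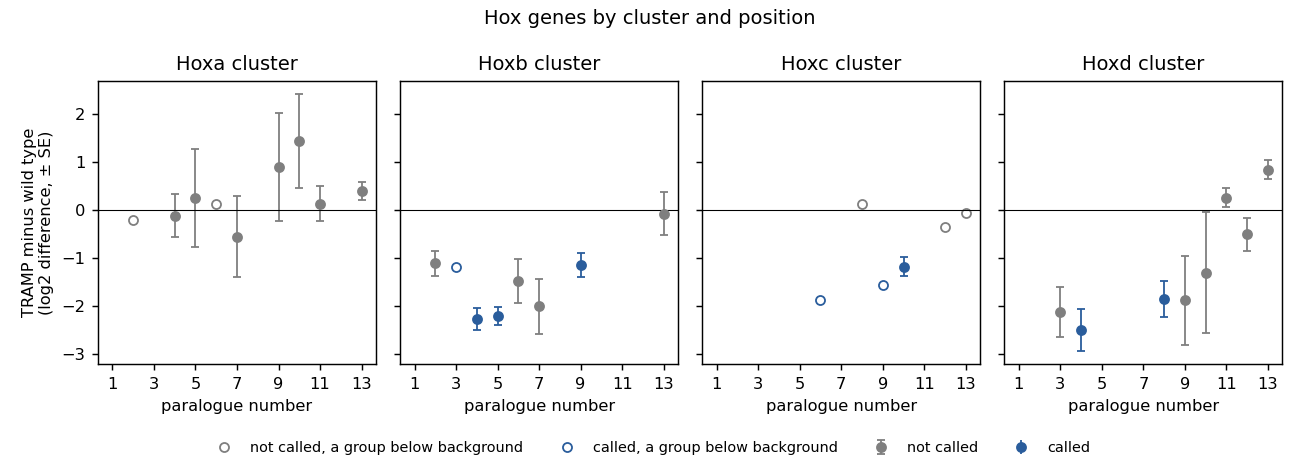
Difference TRAMP minus wild type (log2, ± SE) of each Hox gene tested, by cluster (panels) and paralogue number (x axis), with called genes in blue and with open symbols, without SE, for genes that had no array above background in a group. The called genes, all below 0, lie in the Hoxb, Hoxc and Hoxd panels between numbers 3 and 10, and no gene of the Hoxa panel is called.

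Some genes of secreted proteins of the genital tract fell far, Defb42 the furthest of all called genes. Of 19 beta-defensin genes tested (41 listed) 7 fell and none rose, with a median of -1.22. Beta-defensins are small cationic peptides, many of them made in the epididymis. Defb42 was at 14.44 and 14.26 in wild type and at 5.91 and 7.47 in the tumours, above background in 1 of them (-7.66 ± 0.46), and Defb28 was at 10.05 and 9.36 and not above background in the tumours, at least 6.44-fold lower. Both held, and the other 5 lost their calls without TRAMP replicate 2 (up to 0.25), all but Defb15 also without TRAMP replicate 1, and Defb1, Defb30 and Defb43 also without 1 or more other arrays. With the 4 compared arrays alone 4 were called. Defb50 was bright on all 4 arrays and differed by 0.05 ± 1.40 (adjusted p = 0.989). Serpins, inhibitors of proteases, fell in 3 of 18 cases, led by Serpina1f (12.60 and 11.24 against 6.52 and 6.38, at least 29.9-fold lower, held). Outside these lists, the orphan receptor gene Gpr83 was at 12.14 and 11.20 and at least 25.1-fold lower, the zona pellucida-domain gene Cuzd1 at least 10.3-fold lower, and Plau, the urokinase protease, went from 13.63 and 13.02 to 8.70 and 9.84 (-4.05 ± 0.49), all held. Mug1 was at least 17.7-fold lower but lay 4-fold apart or more between the wild-type arrays (12.36 and 9.97) and lost its call without either tumour (up to 0.0698). Imprinted genes fell in 3 of 15 cases, with the growth factor gene Igf2 (11.11 and 11.31 against 8.95 and 9.38, -2.04 ± 0.21) held.

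The 2 tumours disagreed on secretory genes. At least 4-fold apart were 55 genes, 38 of them higher in replicate 2 and 17 in replicate 1. Of 17 seminal vesicle and prostate secreted proteins tested, the median gap was 5.56 (log2, replicate 2 minus replicate 1) against 0.03 between the wild-type arrays, and none of the 17 was called. Svs3b, a seminal vesicle protein gene, was at 6.74 in tumour replicate 1 and 16.03 in replicate 2, with 14.17 and 14.91 in wild type. Pate4 stood at 7.52 and 15.83 (wild type 15.81 and 15.97), Svs2 at 6.70 and 13.88 (15.27 and 15.49) and the trypsin inhibitor Spink1 at 7.19 and 14.93 (15.90 and 13.57). In these 4 genes replicate 1 lay far below wild type and replicate 2 nearer to it. All 8 seminal vesicle markers were tested and summed to 221090 and 244020 in wild type and to 2407 and 232899 in the tumours. The wild-type mean lay nearer to the higher array in 29 of the 38 genes.

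The gap ran the other way for 17 genes, with the wild-type mean nearer to the higher array in 16. The pancreatic lipase relative Pnliprp1 was at 13.80 in tumour replicate 1 and 8.13 in replicate 2 (wild type 14.07 and 14.01), Fgl1 at 12.49 and 8.23 (13.38 and 12.92), Mt3 at 11.34 and 7.20 (12.13 and 11.75), and probasin, Pbsn, whose promoter drives the transgene, at 10.20 and 6.94 (12.50 and 11.23). Pbsn differed by -3.30 ± 0.98 over both tumours (adjusted p = 0.108). Whether the seminal vesicle markers and the other genes of the first set share a source was not tested.

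The wild-type prostates disagreed on more genes than the tumours did. At least 4-fold apart were 155 genes, 128 of them higher in replicate 2. Acute phase and epithelial defence genes led: Saa3 was at 7.30 in replicate 1 and 14.14 in replicate 2 (tumours 7.41 and 6.94), Ltf, lactoferrin, at 9.79 and 15.70 (9.86 and 12.87), Dmbt1 at 6.57 and 11.52 (9.62 and 8.08) and Serpina3n at 9.92 and 14.22 (11.41 and 11.28). Genes of squamous epithelium were also higher in replicate 2, such as Krt13 (6.70 and 10.55), Sprr2g (6.80 and 11.27) and the cornified envelope gene Ivl (8.37 and 12.47). The tumour mean lay nearer to the lower array in 106 of the 128 genes. Whole lists moved with this array. The median gap, replicate 2 minus replicate 1, was 1.46 for 13 complement genes, of which none was called, 1.10 for 31 chemokine ligands, of which 1 was higher and 2 lower, and 1.04 for 23 proteoglycan and elastic fibre genes, of which 1 was lower. Of 30 MHC genes 6 rose, led by H2-K1 (8.53 and 8.95 against 10.44 and 10.71), with a median gap of 0.81 between the wild-type arrays, and no call of this list held (up to 0.263). Basal epithelial markers summed to 19169 and 37488 in wild type (7084 and 9884 in the tumours) and adipocyte markers to 18337 and 35229 (4332 and 4169). Of 5 basal markers tested 2 were called lower, and of 6 adipocyte markers 5, against 2.90% of all genes. Of these calls only that of Trp63, a basal marker, held. Replicate 1 of wild type was higher in 27 genes, among them the secretoglobin gene Scgb2b26 (12.67 and 6.75) and Sbp (10.12 and 6.66), which encodes a spermine-binding secreted protein.

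**Figure D5:**
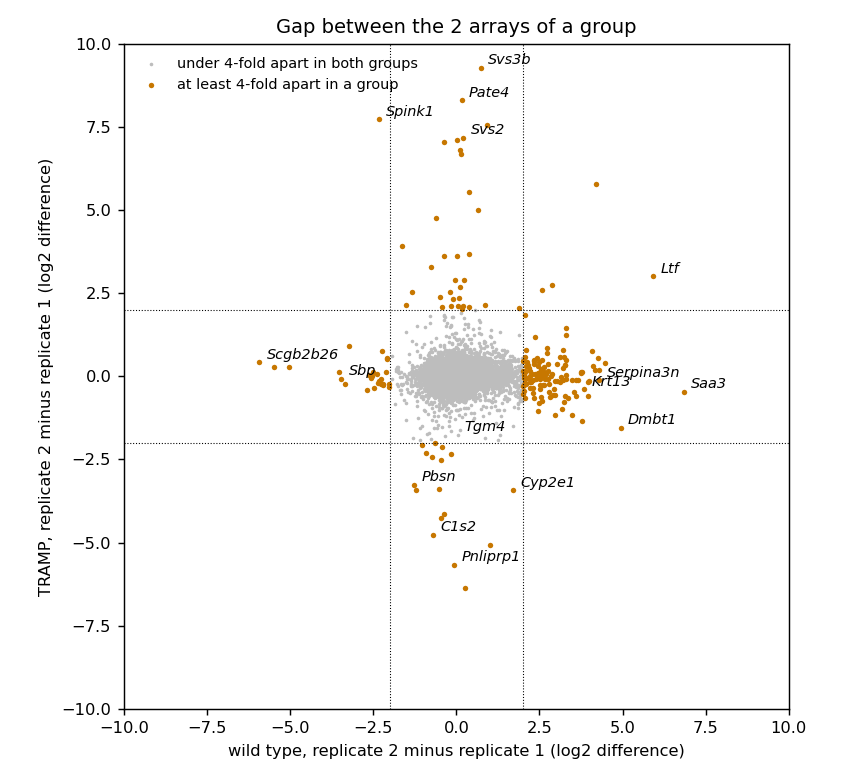
Each point is a gene, with the log2 gap between the wild-type arrays on the x axis and between the TRAMP arrays on the y axis, each replicate 2 minus replicate 1, and dotted lines at 4-fold. Genes at least 4-fold apart lie along the axes, 155 for wild type and 55 for TRAMP, and 5 are apart in both groups, Ltf among them.

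Of the 863 called genes 1 was at least 4-fold apart between the tumours and 7 between the wild-type arrays, among them Csrp3, Upk3b, Pon1, Defb43 and Ctse. A wide gap raises the SE and makes a call unlikely, so these low counts follow from the test itself. A call was kept with each array left out more often among the 50 genes with the largest rises and falls than among all 863. The 50 were chosen by size of change on these same arrays, which makes a call easier to keep. The comparison is therefore no support for them.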

How the data were processed

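Prostate RNA of 8 samples was measured on Illumina beadchips, 4 of which are compared here. The deposited values are probe intensity on a linear scale, made with BeadStudio per the submitters' processing notes. The authors' table was already quantile normalized: once sorted, any 2 arrays lay within 0.0489 (log2) of each other at each rank. It was corrected here by normexp (offset 50), quantile normalized again and put on the log2 scale, and the brightest probe was kept per gene. A probe counted as above background at a limit of 217 in intensity, which was chosen after values were seen. Genes with a probe above it on at least 1 of the 8 arrays were tested. Some of them were thus below it on all 4 compared arrays. With 2 of the 4 compared arrays required, 11098 genes were tested. Of 25697 probes 23978 carried 1 gene name. The groups were fitted over all 8 arrays with limma 3.58.1 (R 4.3.3) and Benjamini-Hochberg adjustment, and the fit was tested on simulated data. Tables and figures used Python 3.11.15 with pandas 2.3.3 and matplotlib 3.10.9. Genes are named by list, by size of change (25 in each direction) and by gaps between arrays, and further genes, such as Orc6, Rb1, Brca1, Pold1, Hoxd13, Defb50 and Csrp3, were chosen after their values were seen. The members and lists were chosen with earlier results of these data known. No label says that replicate numbers pair the samples, so the main fit holds no pairing. Deviations of samples with the same number correlated at 0.0483 over genes, which cannot show whether such samples were handled together. A further table holds 8 columns of per-sample signal that no label ties to a sample; they were not used, so no detection p-value filter was possible.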

Additional observations from a re-analysis of the deposited data

How the results depend on the processing

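Counts of 486 higher and 377 lower genes moved most with which arrays were fitted. With only the 4 compared arrays 799 genes were higher and 668 lower. With a replicate block 244 were higher and 174 lower, although no label says that the numbers pair the samples (correlation of deviations 0.0483). Leaving out each array in turn gave 106 to 701 higher and 96 to 610 lower genes: without TRAMP replicate 2 106 and 96, without TRAMP replicate 1 155 and 111, without wild-type replicate 2 230 and 188, without wild-type replicate 1 285 and 332, and without TRAMP cromolyn replicate 2 701 and 610. Leaving out a compared array changes a group mean as well as the spread, and the cause of the moves was not tested. Leaving out the KitW-sh array could change no call, since a single array adds nothing to the spread and the normalization was not redone. The other settings of background, normalization, filter, probe choice and variance trend gave 444 to 535 higher and 360 to 448 lower genes. Genes at least 4-fold apart numbered 42 to 73 between the tumours and 115 to 206 between the wild-type arrays over all settings. Direction was followed only for the called genes named by list, by size or by gap, and none changed it in 4180 gene and setting pairs. Since the groups did not overlap in any called gene, leaving out 1 array could not reverse a direction. The limit for background was picked among 9 density settings, which gave 216.3 to 219.5 and 485 to 487 higher genes. Low signal over background limits the 48 higher and 110 lower genes with no array above background in the lower group.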
